A study of Homo sapiens with 40 samples.

Results

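LOUCY and DND-41 are established human cell lines from T-ALL, the acute lymphoblastic leukaemia that arises from developing T cells. LOUCY is a line of the early T-precursor kind and DND-41 carries features of the cortical stage of the thymus, so the pair sets an early-precursor line against one with cortical features. The comparison takes the 4 LOUCY and the 4 DND-41 libraries by their line, 8 of the 40 libraries of the series and 8 of the 24 in its table of 6 untreated lines. Both lines were untreated and grown in RPMI medium with 10% fetal calf serum, and their RNA is labelled as polyadenylated. The series asks about the RNA-binding protein QKI in T-ALL, and the 4 other lines of the table, ALL-SIL, HPB-ALL, KARPAS-45 and TALL-1 (4 libraries each), are used here only to place the pair. Each line is 1 leukaemia. Stage of arrest, driver lesions and origin therefore cannot be told apart, and since no label says whether replicates came from separate cultures, p-values measure only the spread between libraries.

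T-cell precursors enter the thymus with a stem-cell programme that includes MEF2C, LYL1, SPI1 and HHEX, and shut it down as NOTCH signalling and T-lineage factors such as TCF7 and BCL11B take hold. Cortical thymocytes then switch on the CD1 antigen-presenting proteins, the RAG recombinase that cuts the T-cell receptor genes and terminal transferase, which adds bases at the cut ends. T-ALL cells keep much of the programme of the stage at which they stopped.

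The 4 marker genes set for this comparison split the lines without overlap. CD1B, a lipid antigen-presenting protein of cortical thymocytes, had no read in 3 LOUCY libraries and 0.0195 CPM (read counts scaled to library size) in the other, against 596, 633, 707 and 669.9 CPM in DND-41. RAG1, the catalytic subunit of the recombinase, stood at 3.14, 2.35, 3.64 and 1.4 CPM in LOUCY, against 758, 664, 745 and 834 CPM in DND-41. Both cortical genes were therefore high in every DND-41 library. MEF2C, a transcription factor of early progenitors, had 144, 147, 164 and 102 CPM in LOUCY and no read in any DND-41 library. HHEX, a homeobox factor of blood progenitors, was at 182, 179, 170.1 and 168 CPM in LOUCY and at 5.28, 4.46, 4.58 and 3.95 CPM in DND-41. Since the comparison was set by these 4 markers, their split describes the pair and does not test its stages. The stem-cell antigen CD34 was close to absent in LOUCY too (0.117 to 0.307 CPM, against 0 to 0.0378 CPM in DND-41, too low to be tested) and the receptor KIT did not pass 0.143 CPM there. CPM are scaled by edgeR's TMM factors throughout, and replicates are given in the order 1a, 1b, 3 and 4 for LOUCY, where 2 columns carry the number 1, and 1 to 4 for DND-41.

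**Figure D1:**
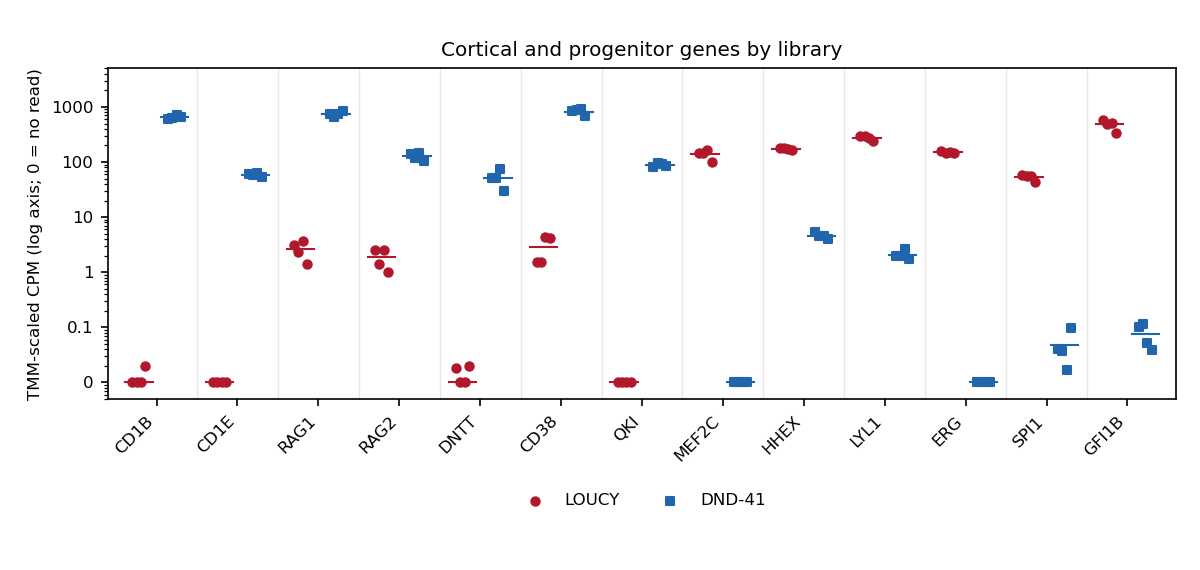
Cortical genes (CD1B to CD38), QKI and progenitor genes (MEF2C to GFI1B) in each library, as CPM on a log axis on which no read is drawn at the level marked 0. Each point is 1 library, LOUCY left (circles) and DND-41 right (squares), with a line at the mean; no gene shown has overlapping lines.

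Total counts were 50411554 to 57798879 per LOUCY library and 44093984 to 53399172 per DND-41 library, so 3 counts per library, taken as the floor for a gene with no read, equal 0.0571 CPM in LOUCY and 0.0567 CPM in DND-41. Replicate 4 of LOUCY stood apart: 204 of 9519 genes at 10 CPM or more were over 2-fold above the mean of the other LOUCY replicates and 175 were over 2-fold below it, against at most 2 above and 20 below for replicates 1a, 1b and 3. DND-41 replicate 4 departed less, with 52 genes above and 39 below of 9317. Genes of endoplasmic reticulum and amino-acid stress, chosen after their values were seen, were high in that LOUCY library: the chaperone HSPA5 had 385, 348, 351 and 1737 CPM in LOUCY, and the stress factor DDIT3 13.3, 8.69, 9.23 and 71.3 CPM. Mitotic genes were low in it, with PLK1 at 205, 181, 174 and 45.4 CPM. Without it the log2 fold change, LOUCY over DND-41, was 1.36 for HSPA5 (2.34 with it) and -2.63 for DDIT3 (-1.31 with it). Where a line had at most 5 reads of a gene, the fitted fold change often moved by over 1.5 times without the library that held them, so reads are given in its place.

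Of 20348 genes tested with edgeR's quasi-likelihood test, 13403 (65.9%) differed between LOUCY and DND-41 at an adjusted p under 0.05, 6766 of them higher in LOUCY (33.3%) and 6637 lower (32.6%). The median log2 fold change over all genes was 0.00, and the median size of a called change was 1.38 on the log2 scale. Changes shown to exceed 2-fold numbered 3293 higher (16.2%) and 3084 lower (15.2%). A count of called members in any list is read against these shares. Set against the mean of the 4 other lines, 29.6% of genes lay beyond 2-fold in LOUCY and 19.7% in DND-41. That mean is taken over log levels, so a line near 0 pulls it down. These contrasts share the 4 lines, of which HPB-ALL and KARPAS-45 were grown in 20% serum. The 25 gene lists span medians of -7.90 to 7.15 log2 units when genes with no read in 1 line are set at the floor, as the plot of list members shows.

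**Figure D2:**
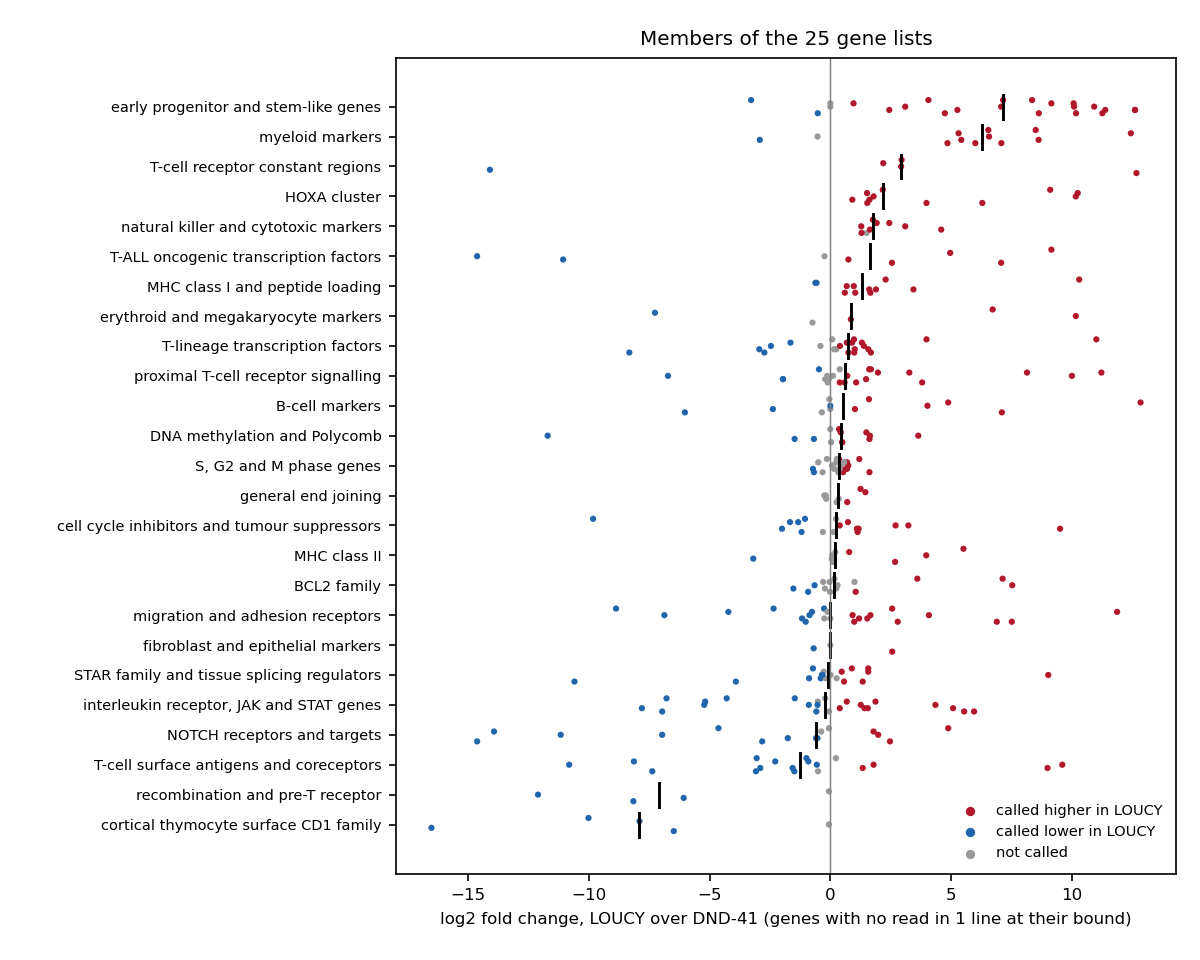
Log2 fold change, LOUCY over DND-41, of each tested member of 25 gene lists, a row per list, with genes that have no read in 1 line placed at their bound against 3 counts per library. Colour gives the call, the vertical mark is the list's median, and genes with no read in both lines are left out; progenitor genes sit highest (7.15) and CD1 genes lowest (-7.90).

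Of the CD1 family 4 of 5 genes, the marker CD1B among them, fell in LOUCY and none rose. CD1E, which acts on lipids inside the cell, had no read in any LOUCY library and 61.2, 58.3, 63 and 53.8 CPM in DND-41, at least 1035-fold lower in LOUCY (adjusted p = 2.54e-12). CD1D, which presents lipids to natural killer T cells, had no read in LOUCY and 13 to 14.2 CPM in DND-41, at least 239.5-fold lower. CD1A kept 0.271 to 0.604 CPM in LOUCY, against 29.9 to 42.4 CPM in DND-41 (log2 fold change -6.48 ± 0.46 SE, adjusted p = 5.12e-12). For CD1B the single LOUCY read gives a ratio of 137255 with a 95% counting interval of 24635 to 5421289. That read is in replicate 4, and the fitted log2 fold change was -16.51 with it and -18.17 without it. The exception was CD1C, at 0.922, 0.736, 1.32 and 0.935 CPM in LOUCY and 1.13, 1.15, 1.03 and 0.798 CPM in DND-41 (log2 fold change -0.06 ± 0.35, adjusted p = 0.902), low in both lines although other lines of the table reached 122 CPM. CD1B and CD1E, with an unnamed noncoding gene, also formed 1 of only 3 runs of genes silent in LOUCY. A run is 3 or more such genes in order along a chromosome, where only genes that reached 1 CPM in DND-41 are considered.

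CD1E and CD1C, chosen after their values were seen, lie in the same gene cluster of chromosome 1 and differ between the lines in unlike ways, so their start regions are shown with those of RAG1 and HHEX, markers of each line with a single start in RefSeq (GRCh38.p14, plus strand, 250 bases before to 50 after the start). Capitals mark the E-box CAGCTG, the GATA motifs AGATAA or TGATAA, the TCF/LEF motif CTTTGAT and the RUNX motif TGTGGT, each on either strand. The windows are chr1:158353644-158353943 for CD1E, chr1:158289673-158289972 for CD1C, chr11:36510103-36510402 for RAG1 and chr10:92689705-92690004 for HHEX.
CD1E: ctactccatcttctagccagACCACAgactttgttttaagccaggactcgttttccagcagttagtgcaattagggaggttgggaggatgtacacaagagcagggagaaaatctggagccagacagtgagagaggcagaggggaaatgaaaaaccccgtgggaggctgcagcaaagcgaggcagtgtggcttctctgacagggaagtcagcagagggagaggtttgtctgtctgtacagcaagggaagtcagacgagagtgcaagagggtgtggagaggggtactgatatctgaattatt
CD1C: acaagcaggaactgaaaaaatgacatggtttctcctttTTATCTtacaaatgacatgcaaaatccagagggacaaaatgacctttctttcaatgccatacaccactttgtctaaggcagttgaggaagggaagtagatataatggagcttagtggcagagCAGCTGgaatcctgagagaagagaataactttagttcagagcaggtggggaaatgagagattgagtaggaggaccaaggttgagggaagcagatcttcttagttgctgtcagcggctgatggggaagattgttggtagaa
RAG1: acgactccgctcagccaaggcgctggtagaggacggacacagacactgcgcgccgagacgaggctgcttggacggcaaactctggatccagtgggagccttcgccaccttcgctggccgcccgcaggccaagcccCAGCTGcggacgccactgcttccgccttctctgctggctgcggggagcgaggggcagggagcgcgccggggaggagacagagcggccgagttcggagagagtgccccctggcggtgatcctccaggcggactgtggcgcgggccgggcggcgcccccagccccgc
HHEX: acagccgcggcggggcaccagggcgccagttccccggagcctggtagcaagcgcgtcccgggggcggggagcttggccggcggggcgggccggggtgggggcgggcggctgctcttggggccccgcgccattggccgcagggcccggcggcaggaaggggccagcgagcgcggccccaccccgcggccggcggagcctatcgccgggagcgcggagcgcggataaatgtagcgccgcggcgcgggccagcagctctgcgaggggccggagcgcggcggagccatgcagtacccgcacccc
CD1E holds 1 RUNX match, CD1C 1 E-box and 1 GATA match, RAG1 1 E-box, and HHEX none of the 4 motifs. Among 34796 distinct windows of the same length, 17.9% hold the E-box, 16.4% a GATA match, 2.62% the TCF/LEF match and 13.1% the RUNX match. A match is a description of letters, not of a bound site, and gene counts do not say which start a cell used.

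Of the recombination list, which holds the marker RAG1, 3 of 4 genes fell with the CD1 genes. RAG2, the partner subunit of RAG1, was at 2.51, 1.39, 2.57 and 1.03 CPM in LOUCY and at 138, 119, 145 and 106 CPM in DND-41 (log2 fold change -6.07 ± 0.34, adjusted p = 8.83e-13), and RAG1 changed by -8.15 ± 0.30 (adjusted p = 1.31e-17). DNTT, terminal transferase, had 2 reads over the 4 LOUCY libraries and 51.4, 50.7, 74.7 and 29.5 CPM in DND-41. PTCRA, the invariant chain of the pre-T-cell receptor, did not pass 0.214 CPM in LOUCY or 0.12 CPM in DND-41 and was not called (adjusted p = 0.972; log2 fold change -0.06, and -1.01 without LOUCY replicate 4, adjusted p = 0.36), while the other lines spanned 0.529 to 139 CPM. The other lines averaged 3.3 CPM of RAG1 in ALL-SIL, 54.5 CPM in HPB-ALL, 25.9 CPM in KARPAS-45 and 0.0907 CPM in TALL-1 (n = 4 each), so LOUCY lay within their range and DND-41 above it. The 8 general end-joining genes, which repair breaks in all cells, had 3 called higher in LOUCY and none lower, with a median of 0.31: XRCC5 and XRCC6, the Ku subunits, at log2 fold changes of 1.45 ± 0.15 and 1.25 ± 0.19, and the ligase LIG4 at 0.70 ± 0.16.

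T-cell receptor constant regions showed which receptor genes each line transcribed. TRAC, of the alpha chain, was at 209.5, 192, 221 and 172 CPM in LOUCY and at 0 to 0.0513 CPM in DND-41 (log2 fold change 12.67 ± 0.41, adjusted p = 1.05e-18). TRBC1, of the beta chain, was at 0.0584 to 0.0725 CPM in LOUCY and at 960.5, 1203, 1308 and 1302 CPM in DND-41 (log2 fold change -14.09 ± 0.38, adjusted p = 4.91e-20). Its near copy TRBC2 went the other way, with 2254, 1633, 1923 and 1706 CPM in LOUCY and 227, 227, 274 and 261 CPM in DND-41, though reads of the copies may be split by the counting and the pair is uncertain to that extent. TRDC, of the delta chain, was at 1126 to 1313 CPM in LOUCY and 108 to 185 CPM in DND-41 (2.95 ± 0.20). TRGC2, of the gamma chain, was at 28.1 to 59.4 CPM in LOUCY and 9.58 to 10.5 CPM in DND-41 (2.19 ± 0.26). Thus 4 of 6 segments rose, 1 fell and TRGC1 had no read in either line.

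Among 18 tested T-cell surface antigens, 12 fell in LOUCY and 4 rose. CD38, an ectoenzyme of activated and cortical cells, was at 1.54, 1.55, 4.35 and 4.23 CPM in LOUCY and at 833, 868, 903 and 678 CPM in DND-41 (log2 fold change -8.13 ± 0.35, adjusted p = 3.56e-16). ICOS, a costimulatory receptor, had no read in LOUCY and 104, 118, 92 and 95.3 CPM in DND-41, at least 1790.4-fold lower. CD7, an early T-lineage antigen, was lower by a smaller step, 175 to 208 CPM in LOUCY and 848 to 982 CPM in DND-41 (-2.28 ± 0.14). The CD3 chains stayed abundant in both: CD3E had 643 to 758 CPM in LOUCY and 833 to 1143 CPM in DND-41 (-0.56 ± 0.13). The coreceptors were low in both lines, CD4 at 0.398 to 0.545 CPM in LOUCY and 3.45 to 5.06 CPM in DND-41 and CD8A at 0.145 to 0.331 CPM in LOUCY and 1.74 to 2.02 CPM in DND-41, against 27.6 CPM or more in every library of the other lines for each. In the opposite direction, CD5 and CD6, scavenger-family receptors that damp receptor signalling, were nearly absent from DND-41. CD5 had 155, 150.5, 157 and 149 CPM in LOUCY and 0.363, 0.453, 0.222 and 0.156 CPM in DND-41 (8.99 ± 0.22, adjusted p = 1.01e-20). CD6 had 154, 175, 156 and 121 CPM in LOUCY and 0.17 to 0.234 CPM in DND-41 (9.60 ± 0.19), and DND-41 differed from the mean of the 4 other lines by -9.09 ± 0.18 log2 units. CD28, a costimulatory receptor, also rose (1.79 ± 0.29), and CD27 rose at levels of 0.0584 to 0.145 CPM in LOUCY and 0 to 0.0807 CPM in DND-41, a call that was lost in 5 of the 8 fits that left out 1 library.

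Genes just below the receptor rose more often than they fell in LOUCY, 13 against 4 of 23, with a median of 0.59. SYK, a kinase shared with B cells and early thymocytes, was at 247, 247, 273 and 270.4 CPM in LOUCY and at 1.09, 0.831, 0.837 and 0.915 CPM in DND-41 (log2 fold change 8.14 ± 0.14, adjusted p = 4.95e-17). The related kinase ZAP70 was not called (184 to 216 CPM in LOUCY and 214 to 229 CPM in DND-41; -0.13 ± 0.12, adjusted p = 0.344). Of the TEC kinases, TEC rose (39.9 to 56.6 CPM in LOUCY, 0 to 0.0584 CPM in DND-41) and TXK had 5.2 to 8.59 CPM in LOUCY against a single read in DND-41. THEMIS, a regulator of thymocyte selection, had 2 reads in all in LOUCY and 0.868 to 1.61 CPM in DND-41, and FYN, a SRC-family kinase, and PLCG1, a phospholipase, also fell (-1.96 ± 0.25 and -0.47 ± 0.10).

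T-lineage transcription factors were mixed, 13 higher and 5 lower of 22 tested (median 0.72). TCF7, which opens the T-cell programme below NOTCH, was at 0.108, 0.143, 0.0544 and 0.37 CPM in LOUCY and at 38.4, 44, 54.5 and 79.2 CPM in DND-41 (log2 fold change -8.32 ± 0.35, adjusted p = 2.67e-16, and -9.06 without LOUCY replicate 4). Every library of the 4 other lines had at least 479 CPM, and DND-41 itself differed from their mean by -4.54 ± 0.25 log2 units. BCL11B, the commitment factor, had 20 to 23.2 CPM in LOUCY and 60.1 to 90.4 CPM in DND-41 (-1.65 ± 0.20). GFI1, a repressor of early thymocytes, fell by 2.94 ± 0.27 on the log2 scale. LEF1, the relative of TCF7, showed no such gap: 629, 726, 695 and 334 CPM in LOUCY and 512, 499, 511 and 501 CPM in DND-41 (0.24 ± 0.21, adjusted p = 0.342). GATA3, a factor of early T-cell development, rose, with 317, 245, 283 and 178 CPM in LOUCY and 84.2, 108, 107 and 91.8 CPM in DND-41 (1.39 ± 0.20, adjusted p = 9.49e-07). The factors called higher with the smallest p were IKZF3, an Ikaros relative (3.98 ± 0.21), TOX (1.57 ± 0.13), RUNX3 (1.68 ± 0.14) and ZBTB7B, the factor of the CD4 lineage, which had 22.1, 20.7, 24.6 and 67.9 CPM in LOUCY and 3 reads in all in DND-41.

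The progenitor list showed the reverse of the cortical genes: 19 of 23 tested members rose in LOUCY, all 19 beyond 2-fold, and 2 fell, with a median log2 fold change of 7.15. The 19 include MEF2C and HHEX, by which the comparison was set. They also include KIT, MECOM, BAALC and PROM1, whose means in LOUCY were only 0.11, 0.112, 0.139 and 0.431 CPM. LYL1, a basic helix-loop-helix oncogene of immature T-ALL, was at 302, 291, 278 and 243 CPM in LOUCY and at 1.98, 1.94, 2.61 and 1.73 CPM in DND-41 (7.07 ± 0.21, adjusted p = 1.78e-19). ERG, an ETS factor of stem cells, had 159, 148, 152 and 145 CPM in LOUCY and no read in DND-41, at least 2663-fold higher. GFI1B, a repressor of red-cell and platelet precursors, had 587, 499, 516 and 337 CPM in LOUCY and 0.0389 to 0.113 CPM in DND-41 (12.61 ± 0.28). These 3 genes were also high in LOUCY against the rest of the table, in which LYL1 did not pass 27.5 CPM, ERG 0.0714 CPM and GFI1B 0.121 CPM. SPI1, the myeloid and early thymic factor PU.1, was at 44.2 to 58.9 CPM in LOUCY and at most 0.0973 CPM in DND-41 (10.09 ± 0.34). MN1, a transcriptional coregulator, was at 46.1 to 56.6 CPM in LOUCY and 0.245 to 0.444 CPM in DND-41 (7.15 ± 0.24). LMO2, a bridging protein of blood stem cells, had 28.8 to 34.5 CPM in LOUCY and no read in DND-41. GATA2, a stem-cell factor, had 26 to 52.3 CPM in LOUCY against 1 read in DND-41. MEF2C was at least 2454-fold higher in LOUCY and HHEX differed by 5.26 ± 0.21 log2 units. FLT3, a cytokine receptor of progenitors, went against the list, at 0.0614 to 0.109 CPM in LOUCY and 0.666 to 1.11 CPM in DND-41 (-3.28 ± 0.29), as did BCL11A (-0.52 ± 0.12), which was above 39 CPM in every library of both lines.

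All 11 HOXA genes, body-axis transcription factors that progenitors and some T-ALL express, rose in LOUCY, 10 of them beyond 2-fold, with a median of 2.17. The steps differed along the cluster. HOXA9 had 66.1, 51.6, 57.7 and 83.6 CPM in LOUCY, HOXA10 68.2, 59.3, 63.4 and 84 CPM and HOXA11 30.3, 25.6, 27.5 and 41.4 CPM, and none of the 3 had a read in DND-41 (at least 1142-, 1213- and 550.2-fold higher). Genes on either side of these were transcribed in DND-41: HOXA7 was at 34.9 to 45.6 CPM in LOUCY and 19.9 to 23.1 CPM in DND-41 (0.91 ± 0.19, adjusted p = 0.000249), and HOXA13 at 24.2 to 36.6 CPM in LOUCY and 1.55 to 2.08 CPM in DND-41 (3.98 ± 0.21, adjusted p = 2.39e-13). Both lines were above the 4 other lines for HOXA7, LOUCY by 8.51 ± 0.18 and DND-41 by 7.61 ± 0.19 log2 units. HOXB genes, added after the values were seen, followed the pattern of HOXA9: HOXB2 to HOXB9 ranged from 21.1 CPM (HOXB5) to 434 CPM (HOXB9) over the LOUCY libraries, and DND-41 had 1 read in all for HOXB3 and HOXB9 each and none for the other 6. HOXB9 had 274, 236, 232 and 434 CPM in LOUCY and no read in the 16 libraries of the other lines. Reads of overlapping and antisense HOX transcripts cannot be told apart without knowing the strand setting of the counting.

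**Figure D3:**
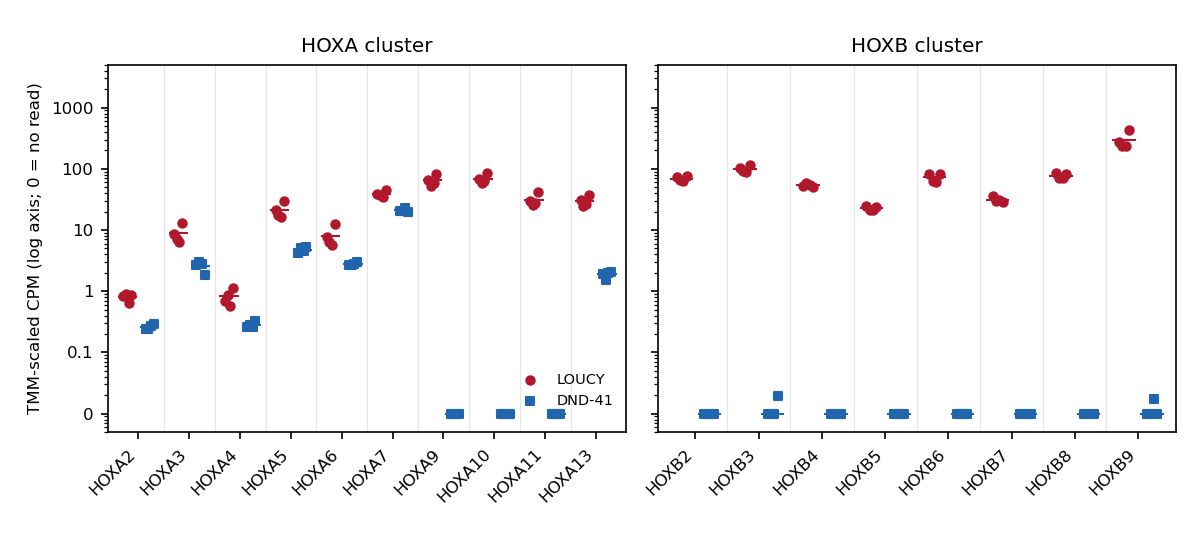
10 HOXA genes (left) and 8 HOXB genes (right) in cluster order, as CPM per library on a log axis on which no read is drawn at the level marked 0, with LOUCY circles left of DND-41 squares and a line at each mean. LOUCY expressed every gene shown, while DND-41 kept most HOXA genes, had no read for HOXA9 to HOXA11 and at most 1 read for any HOXB gene.

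Among 8 tested T-ALL oncogenic factors 5 rose in LOUCY and 2 fell, and the oncogenes themselves were split between the lines. Some of the 5 are also members of other lists given here. TLX3, the homeobox oncogene, had no read in LOUCY and 115, 102, 127 and 142 CPM in DND-41, at least 2128-fold lower, and was otherwise high only in HPB-ALL (225 ± 58.7 CPM, SD, n = 4). LMO1 reached 0.467 to 2.56 CPM in LOUCY with no read in DND-41, and TLX1 0.0974 to 0.45 CPM. The clearest exchange was within the MYC family, of which only MYC is on the list. MYC had 3 reads in all in LOUCY and 366, 396, 423 and 471 CPM in DND-41, a ratio of 29081 (95% counting interval 9951 to 141016, adjusted p = 4.22e-15). The fitted log2 fold change of MYC was -14.62, and -15.59 without LOUCY replicate 4. MYCN, its relative of the nervous system and immature cells, was at 99.7, 91.2, 86.8 and 75.8 CPM in LOUCY and had no read in DND-41 or in any library of the 4 other lines, which all had at least 69.9 CPM of MYC. MYCL, chosen after its values were seen, was at 3.29 to 4.11 CPM in LOUCY with 2 reads in DND-41.

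**Figure D4:**
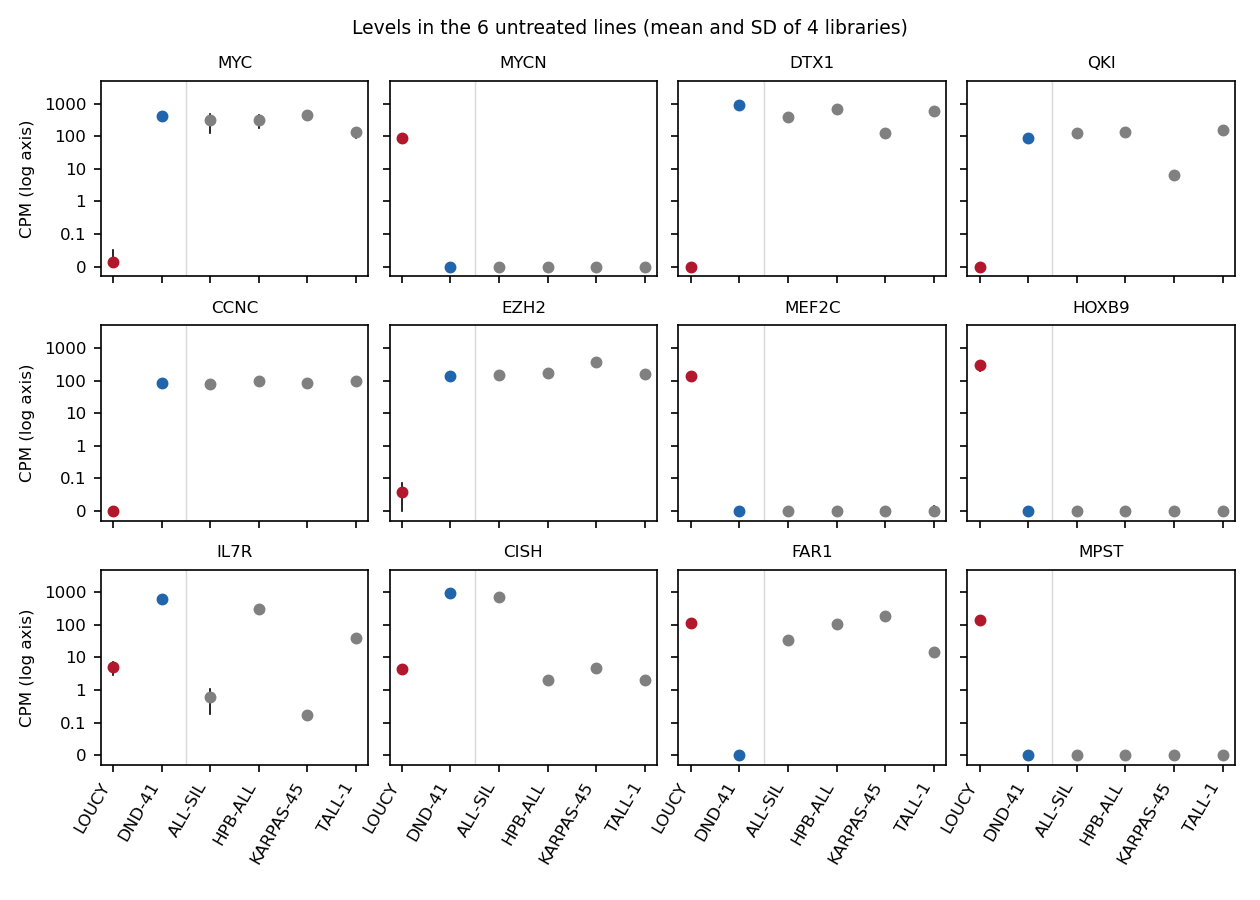
Mean CPM (points) and SD (bars, 4 libraries each) of 12 genes in LOUCY, DND-41 and the 4 other untreated lines, on a log axis on which no read is drawn at the level marked 0. MYC, DTX1, QKI, CCNC and EZH2 are at or near 0 in LOUCY only, MYCN, MEF2C, HOXB9 and MPST are high in LOUCY only, and FAR1 is at 0 in DND-41 only.

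NOTCH receptors and their targets fell more often than they rose, 9 against 4 of 16 tested (median -1.15, or -0.59 with zeros at the bound). DTX1, a direct NOTCH target and ubiquitin ligase, had no read in LOUCY and 657, 849, 911 and 1125 CPM in DND-41, at least 15514-fold lower (adjusted p = 9.58e-22), the largest bound of any gene named by size. NOTCH3, a receptor that NOTCH1 itself induces, was at 0.0904 to 0.273 CPM in LOUCY and at 199, 315, 344 and 593 CPM in DND-41 (log2 fold change -11.16 ± 0.41). NOTCH1 fell by less, to 62.8, 69.5, 61.3 and 52.8 CPM in LOUCY, against 337, 427, 481 and 494 CPM in DND-41 (-2.82 ± 0.18, adjusted p = 8.98e-13). HES1, a repressor downstream of NOTCH, had 2.61 to 5.77 CPM in LOUCY and 71.3 to 112 CPM in DND-41 (-4.63 ± 0.21). The low level of NOTCH targets was not uniform: HES4, another such repressor, was at 48, 43.6, 43.5 and 35 CPM in LOUCY and at 3.11, 3.85, 4.2 and 19.5 CPM in DND-41 (2.47 ± 0.42, and 3.49 without DND-41 replicate 4). NRARP, a further listed target, had no read in either line, while the other lines averaged from 0.118 CPM (ALL-SIL) to 62.3 CPM (KARPAS-45). HEYL, HEY1 and NOTCH4 rose at levels under 3 CPM, and TRIB2, a pseudokinase, was not called (-0.38 ± 0.18, adjusted p = 0.0666), though it was called lower without DND-41 replicate 1 (-0.48), LOUCY replicate 1a (-0.47) or LOUCY replicate 3 (-0.52) and with no filter on low counts (-0.41, adjusted p = 0.0399).

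Cytokine receptor, JAK and STAT genes split evenly, 10 higher and 10 lower of 23, and the negative feedback genes of STAT5 led the lower ones. IL7R, the receptor through which thymocytes receive IL-7, was at 3.42, 6.57, 7.45 and 3.14 CPM in LOUCY and at 644, 662, 693 and 555 CPM in DND-41 (log2 fold change -6.96 ± 0.35, adjusted p = 8.35e-15). CISH, a STAT5-induced inhibitor, had 5.51, 4.11, 4.77 and 2.92 CPM in LOUCY and 1022, 1057, 1049 and 731 CPM in DND-41 (-7.80 ± 0.23). SOCS2 was at 0.993 to 4.01 CPM in LOUCY and 233 to 368 CPM in DND-41 (-6.78 ± 0.29) and SOCS1 at 4.56 to 6.18 CPM in LOUCY and 176 to 206 CPM in DND-41 (-5.18 ± 0.17). The kinase PIM1 was at 17.7 to 27.5 CPM in LOUCY and 548 to 1039 CPM in DND-41 (-5.22 ± 0.20). CISH, SOCS2, SOCS1 and PIM1 were lower in every LOUCY library than in DND-41, whereas STAT5A itself was higher: 484, 449, 466 and 458 CPM in LOUCY and 9.48, 9.95, 9.95 and 10.7 CPM in DND-41 (5.54 ± 0.17, adjusted p = 4.67e-19). Against the 4 other lines STAT5A was 5.27 ± 0.10 log2 units higher in LOUCY, and CISH 6.46 ± 0.12 higher in DND-41, although ALL-SIL also had 723 ± 83.9 CPM of CISH (SD, n = 4). HPB-ALL, KARPAS-45 and TALL-1 averaged 2.07, 4.67 and 2.08 CPM of CISH, against 4.33 CPM in LOUCY. Among the 4 other lines ALL-SIL was also highest for SOCS2, SOCS1 and PIM1, averaging 234, 171 and 415 CPM. LOUCY differed from the mean of the 4 lines by -1.34 ± 0.16 for CISH, -0.34 ± 0.23 for SOCS2, -0.40 ± 0.13 for SOCS1 and -1.23 ± 0.15 for PIM1. STAT3, STAT5B and IL2RB, the beta chain shared by IL-2 and IL-15 receptors, rose by 1.87 ± 0.12, 1.41 ± 0.10 and 4.35 ± 0.26.

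BCL2-family genes mostly did not pass the test (8 of 15, median 0.17). BCL2, the survival protein, was high in both lines, at 356, 418, 414 and 368 CPM in LOUCY and 282, 395, 384 and 505 CPM in DND-41 (log2 fold change -0.01 ± 0.13, adjusted p = 0.977), and both lay above the mean of the 4 other lines, by 1.68 log2 units in LOUCY and 1.69 in DND-41. The related survival gene BCL2L1 fell, with 118 to 151 CPM in LOUCY and 343 to 437 CPM in DND-41 (-1.53 ± 0.16), as did the death effectors BAX (-0.92 ± 0.14) and BCL2L11 (-0.65 ± 0.20). BIK, BCL2A1, HRK and BID rose, BIK with 4.52 to 15.5 CPM in LOUCY and 0.0378 to 0.0807 CPM in DND-41 (7.53 ± 0.52). Cell cycle inhibitors and tumour suppressors had 8 higher and 6 lower of 17. CDKN1B, the inhibitor p27, fell (34.4 to 43 CPM in LOUCY, 128 to 184 CPM in DND-41; adjusted p = 3.44e-12). CDKN2B had 1 read in LOUCY and 4.63 to 8.25 CPM in DND-41, and PHF6 fell (log2 fold change -1.19 ± 0.13). Of the D cyclins 1 fell and 2 rose. CCND3 was at 271 to 310.2 CPM in LOUCY and 826 to 1050.4 CPM in DND-41 (-1.67 ± 0.20). CCND1 had 4.01 to 6.57 CPM in LOUCY against 1 read in DND-41 and CCND2 5.39 to 7.71 CPM in LOUCY and 0.545 to 0.982 CPM in DND-41 (3.23 ± 0.27). CDKN2C, an inhibitor of CDK4 and CDK6, rose by 1.13 ± 0.15. The 24 genes of S, G2 and M phase had 9 higher and 2 lower (median 0.37), led by MCM2 of the replicative helicase (1.62 ± 0.15), MCM4, CCNB2 and RRM1, with AURKB and MKI67 lower. The mitotic members were low in LOUCY replicate 4, and without that library CCNB1 and CDC20 were called higher in LOUCY (0.81, adjusted p = 0.00535, and 0.82, adjusted p = 0.00103).

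Migration and adhesion receptors had 11 higher and 9 lower of 23, with a median of 0.00. The integrin chains differed in direction. ITGA4 was at 952, 853, 1009.8 and 912 CPM in LOUCY and at 119, 127, 145 and 147 CPM in DND-41 (2.79 ± 0.21), and its gut-homing partner ITGB7 at 37.2 to 51.5 CPM in LOUCY against 2 reads in DND-41. ITGAM, the myeloid integrin, rose by 6.89 ± 0.47, ITGB2 was lower (-0.86 ± 0.16, adjusted p = 4.45e-05) and ITGAE was not called (-0.12 ± 0.13, adjusted p = 0.396). The chemokine receptor CXCR3 had 5.98 to 16.1 CPM in LOUCY and no read in DND-41. CCR9, which guides cells to thymus and gut, fell, with 3 reads in all in LOUCY and 4.12 to 13 CPM in DND-41. CCR8 (-4.22 ± 0.27), CXCR5 (2 reads in LOUCY, 0.739 to 1.86 CPM in DND-41) and S1PR4 (-1.02 ± 0.17) fell too. MHC class I and loading genes rose as a group, 10 of 12 called higher and 2 lower (median 1.32). NLRC5, the transactivator of these genes, was at 135, 117, 131 and 118 CPM in LOUCY and at 12, 12.7, 12.6 and 8.85 CPM in DND-41 (3.44 ± 0.21, adjusted p = 2.77e-13), PSMB8 and TAP1 rose by 2.29 ± 0.16 and 1.61 ± 0.12, and HLA-F had 6.96 to 27.3 CPM in LOUCY against 2 reads in DND-41. TAPBP (-0.62 ± 0.12) and HLA-E (-0.57 ± 0.21) were lower, HLA-E with adjusted p = 0.0183 that rose to 0.059 without LOUCY replicate 1b and 0.0781 without DND-41 replicate 4. The MHC class II list had 4 higher and 1 lower of 9 tested, with its presenting chains near 0 in both lines and its RFX regulators not called: HLA-DMB had 1.19 to 2.26 CPM in LOUCY and at most 0.0513 CPM in DND-41, HLA-DQB1, CD74 and HLA-DMA were also called higher, and HLA-DRB1 had no read in LOUCY and 0.343 to 0.684 CPM in DND-41.

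QKI, the STAR-family splicing regulator the series is about, had no read in any LOUCY library and 82.6, 94.1, 91.2 and 84.2 CPM in DND-41, at least 1541-fold lower (adjusted p = 2.99e-21). In the other lines it was lowest in KARPAS-45 (6.71 ± 0.776 CPM) and highest in TALL-1 (162 ± 4.24 CPM, SD, n = 4), and DND-41 lay above KARPAS-45 and below ALL-SIL (129.6 CPM), HPB-ALL (137 CPM) and TALL-1. Another STAR protein, KHDRBS3, went the other way, with 28.3, 30, 29.2 and 30.4 CPM in LOUCY, no read in DND-41 and at most 0.144 CPM elsewhere. KHDRBS1 was not called (0.26 ± 0.13, adjusted p = 0.0862). Of the 19 tested STAR and splicing genes, 7 rose, 7 fell and 5 were not called (median 0.00). CELF2, RBFOX2 and MBNL2 rose by 1.57 ± 0.13, 1.57 ± 0.18 and 1.34 ± 0.16 log2 units, while MBNL3 and MBNL1 fell by 0.88 ± 0.10 and 0.72 ± 0.11, and the neuronal ELAVL4 had no read in LOUCY and 0.504 to 1.44 CPM in DND-41.

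Chromatin regulators had 8 higher and 3 lower of 13. EZH2, the catalytic subunit of Polycomb complex PRC2, was at 0.0361, 0.0818, 0.0363 and 0 CPM in LOUCY and at 145, 122, 122 and 146 CPM in DND-41 (log2 fold change -11.70 ± 0.24, adjusted p = 6.08e-22, and -12.30 without LOUCY replicate 1b). No library of the other lines had under 127 CPM. EZH1, which can take its place in the complex, was lower as well (31.6 to 43.3 CPM in LOUCY, 89.9 to 114 CPM in DND-41; -1.48 ± 0.11), and the other core subunits EED and SUZ12 were slightly higher (0.43 ± 0.12 and 0.36 ± 0.12). Of the DNA methylation genes, the methyltransferase DNMT3B rose most, with 316, 360.3, 318 and 171 CPM in LOUCY and 21.9, 21.2, 25.6 and 25 CPM in DND-41 (3.64 ± 0.18), followed by BMI1 of PRC1, DNMT3A and the demethylase TET1 (1.64 ± 0.11, 1.62 ± 0.10 and 1.49 ± 0.13). ASXL1 fell by 0.68 ± 0.10. TET2 had no read in LOUCY and 1 in DND-41, although other lines reached 79.1 CPM.

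Markers of other blood cells were examined because early T-precursor leukaemia can carry them. Myeloid markers had 10 higher and 1 lower of 12 tested, and summed to 102 to 135 CPM in LOUCY and 6.64 to 14.6 CPM in DND-41. CST3, a protease inhibitor, was the most abundant of them (48.1 to 76.7 CPM in LOUCY, 2 reads in DND-41), and CEBPE, a granulocyte factor, had 19 to 21.5 CPM in LOUCY and no read in DND-41. FCER1G and the lysozyme gene LYZ rose by 5.42 ± 0.32 and 6.57 ± 0.43. The defining granule genes were near 0 in LOUCY: MPO did not pass 2.38 CPM, ELANE had 1 read, and AZU1, PRTN3 and S100A8 had none, while CTSG was lower in LOUCY (0.409 to 3.76 CPM, against 5.83 to 13.9 CPM in DND-41; -2.92 ± 0.48, and -4.16 without LOUCY replicate 4). B-cell markers were abundant in both lines, 1698 to 2327 CPM in LOUCY and 2068 to 2316 CPM in DND-41 in sum, with 6 higher and 3 lower of 12. CD79A, a B-cell receptor chain also seen in T-ALL, had 297, 281, 292 and 375 CPM in LOUCY and 1155, 1591, 1663 and 2083 CPM in DND-41 (-2.38 ± 0.25), and BLK fell by 6.02 ± 0.16. VPREB1 had 65 to 107 CPM in LOUCY against 2 reads in DND-41, CD79B rose by 4.02 ± 0.26 and CD22 had 5.93 to 8.8 CPM in LOUCY against no read in DND-41. BLNK, an adaptor, had no read in LOUCY and at most 0.0854 CPM in DND-41, and its call (adjusted p = 0.0176) was lost without DND-41 replicate 3 (adjusted p = 0.0616). EBF1, the B-lineage factor, was present in both (14.3 to 16 CPM in LOUCY and 10.5 to 19.1 CPM in DND-41; adjusted p = 0.94), but the defining PAX5 (called higher, 1 read in DND-41) and MS4A1 did not pass 0.325 and 0.0974 CPM in LOUCY. Of natural killer and cytotoxic markers 8 of 9 rose and none fell, led by CD244 (2.44 ± 0.22), TBX21 (3.10 ± 0.39), EOMES (1.64 ± 0.22) and KLRK1 (1.15 to 1.54 CPM in LOUCY against no read in DND-41); NCAM1 and GZMB had no read in either line. Of red-cell and platelet markers 3 rose and 1 fell of 5, with ITGA2B at 72.9 to 126 CPM in LOUCY and 0.0584 to 0.101 CPM in DND-41 (10.16 ± 0.34), EPOR higher (0.85 ± 0.13) and ITGB3 lower, while GATA1 had 1 read in LOUCY and PF4 and GP9 none. Fibroblast and epithelial markers summed to at most 0.181 CPM in LOUCY and 0.171 CPM in DND-41, with COL1A1 called higher and KRT8 lower. The COL1A1 call (adjusted p = 0.0403) was lost in 5 of the 8 fits without 1 library. Whether any of these genes comes from a subset of cells or from all of them was not tested.

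By size, the 12 largest rises in LOUCY among well-expressed genes were PXDN, GCSAML, ITM2A, CPXM1, CHRDL1, LILRA2, CDH4, ERG, LAPTM4B, MPST, MEF2C and MYADM. ITM2A, a membrane protein of thymocytes, had 2 reads in DND-41 and the others none. Size here is the fitted log2 fold change, over protein-coding genes with a mean of 10 CPM or more in the higher line. Single reads move this order. HOXB9, with 1 read in DND-41, fell outside the 12 at 15.37, below MYADM at 15.90. Without DND-41 replicate 3, which held that read, HOXB9 was at 16.99. PXDN, a peroxidase of the extracellular matrix, was at 246, 271, 269 and 273 CPM in LOUCY, at least 4670.4-fold higher, and LILRA2, a leukocyte immunoglobulin-like receptor, at 145 to 204 CPM with no read in any other line. The 12 largest falls were DTX1, CD1B, TLX3, MAL, ICOS, RORB, QKI, DPP4, CCNC, PABPC4L, VIPR2 and FBXL7. MAL, a lipid-raft protein of T cells, had no read in LOUCY and 97.2, 105, 117 and 104 CPM in DND-41, at least 1853-fold lower. DPP4, the protease CD26, had 1 read in LOUCY and 205 to 284 CPM in DND-41. RORB, a nuclear receptor, and VIPR2, a receptor for vasoactive intestinal peptide, were at least 1557- and 1328-fold lower.

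Most of these genes differ among the other lines too, so the genes that set 1 line apart from all 5 others were drawn separately. LOUCY had 697 such genes above and 259 below every library of the other lines, and DND-41 had 144 above and 164 below, beyond 2-fold against both the partner line and the mean of the 4 others. Only protein-coding genes with an ordinary symbol were counted. They needed a mean of 10 CPM or more, in the line itself when above and in the other lines when below. The number of genes that met these conditions was not recorded, so the counts have no share beside them. The 6 highest in LOUCY were HOXB9, LILRA2, GCSAML, MPST, MYCN and HPGDS, the last a prostaglandin synthase at 150.2, 110.2, 147 and 54.6 CPM in LOUCY. MPST, a mitochondrial sulphur transferase, had 169, 134, 147 and 135 CPM in LOUCY and at most 0.0177 CPM in the other lines. The 6 lowest were DTX1, MAL, CCNC, QKI, MYC and TTC14. CCNC, cyclin C of the Mediator complex and a gene of general use, had no read in LOUCY and 90.8, 82.7, 79.6 and 75 CPM in DND-41, while the 16 other libraries spanned 74.7 to 107 CPM. TTC14 likewise had none in LOUCY and 15.3 to 20.1 CPM in DND-41. In DND-41 the 6 highest were ZNF677, MC5R, HOXD13, TMEM273, FXYD6 and C2CD4B. ZNF677, a zinc-finger protein, had no read in LOUCY and 34.4 to 40.6 CPM in DND-41, and the posterior gene HOXD13 none in LOUCY and 16.8 to 33.4 CPM in DND-41. The 6 lowest in DND-41 were FAR1, DDIAS, EIPR1, PRCP, CDCA7L and STRA6. FAR1, which makes fatty alcohols for ether lipids, was at 109, 119.7, 111 and 128 CPM in LOUCY and had no read in DND-41, against 14.7 CPM or more elsewhere. DDIAS and PRCP, which overlap on chromosome 11, were low in both lines of the pair, at 0.0614 to 0.108 and 0.0614 to 0.195 CPM in LOUCY with no read in DND-41.

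Silent genes were more frequent in DND-41. Of 11712 genes at 1 CPM or more in DND-41, 232 (1.98%) had at most 3 counts in each LOUCY library, and of 12021 at that level in LOUCY, 652 (5.42%) were as silent in DND-41. They formed 3 runs of 3 or more neighbours in LOUCY and 19 in DND-41. Neighbours are taken among genes at 1 CPM or more in the other line. Genes under that level were skipped, so members of a run need not be adjacent in the genome. The longest run in DND-41 was the HOXB cluster on chromosome 17, at 12 genes with its noncoding RNAs. Others were 6 keratin genes on chromosome 12, led by KRT1 (53 CPM in LOUCY), a run with PXDN, MYT1L and EIPR1 on chromosome 2, KLRF2 (112 CPM), a noncoding RNA, CLEC9A and CLEC7A on chromosome 12, and RIPK3, ADCY4, NFATC4 and NYNRIN (174 CPM) on chromosome 14. NCF4, CSF2RB, TST and MPST made a further run on chromosome 22, in which TST, the sulphur transferase beside MPST, had 47.3 CPM in LOUCY and no read in DND-41.

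Some chromosomes differed from the rest in their median, chromosome 16 mainly through its first 20 Mb. The median log2 fold change of genes at 1 CPM or more was 0.51 for the 498 genes of chromosome 9, 0.46 for the 421 of chromosome 15 and -0.38 for the 611 of chromosome 16, and lay between -0.20 and 0.25 for every other chromosome. On chromosome 16 the lowest windows were the first 2. In the first 10 Mb, 111 of 146 genes were called lower and 14 higher (median -1.01), from 10 to 20 Mb 38 of 52 were lower and 6 higher (median -0.95), and from 20 to 30 Mb the median was -0.05 over 79 genes. Farther along, the median was -0.27 over 77 genes from 60 to 70 Mb and -0.46 over 70 genes from 80 to 90 Mb (37 lower, 16 higher), and lay between 0.10 and 0.33 in the other windows. Against the 4 other lines the medians of the first 2 windows were -0.83 and -0.87 in LOUCY, while DND-41 was at 0.29 and -0.14. All 4 LOUCY libraries showed it, with medians of -0.97 to -0.89 in the first window. Among 237 windows of 10 Mb with at least 20 genes, these were the only 2 below -0.9. The next lowest were on chromosome 6 at 150 to 160 Mb (median -0.78, 26 of 33 genes lower) and 110 to 120 Mb (-0.77, 21 of 35 lower) and on chromosome 5 at 170 to 180 Mb (-0.77, 48 of 73 lower). Against the 4 other lines LOUCY was at -0.99, -0.84 and -0.33 in these 3 windows, and DND-41 at -0.07, 0.21 and 0.52. The 2 windows above 0.9 were on chromosome 1 (60 to 70 Mb, 17 of 22 genes higher and 1 lower) and on chromosome 7 (20 to 30 Mb, median 0.98 over 48 genes), the window that holds the HOXA genes. The chromosome 9 and 15 shifts were present in every window of these chromosomes but the last of chromosome 15 (90 to 100 Mb, -0.39 over 39 genes), and combined a rise in LOUCY (0.28 and 0.24) and a drop in DND-41 (-0.24 and -0.20) against the other lines.

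**Figure D5:**
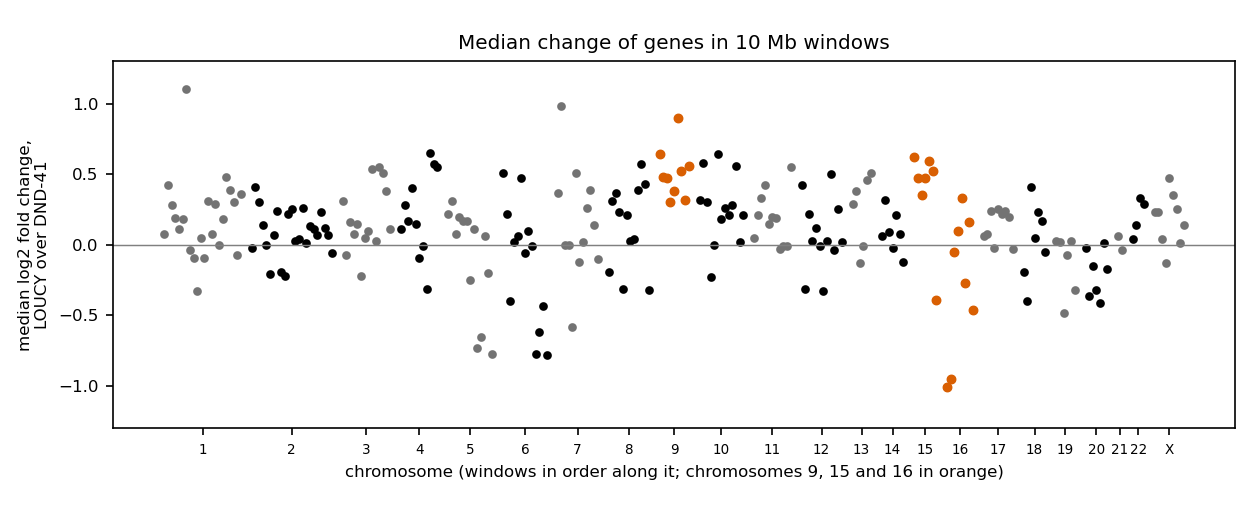
Median log2 fold change, LOUCY over DND-41, of genes in windows of 10 Mb with at least 20 genes, in order along each chromosome (GENCODE 29 positions on GRCh38). Each point is 1 window, chromosomes alternate in grey and black, and 9, 15 and 16 are orange; the 2 lowest points, -1.01 and -0.95, are the first windows of chromosome 16.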

How the data were processed

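RNA from untreated T-ALL lines was sequenced, and the authors deposited raw read counts per gene for 24 libraries of 6 lines. Reads were trimmed with Trimmomatic 0.39 and aligned with STAR 2.7.11b to GRCh38, per the submitters' processing notes. For these lines the counting tool, strand setting, annotation release and library preparation were not given in the sources used here. Counts as deposited cover 62754 gene identifiers, of which 62700 matched a symbol. Tables of the QKI knockdown experiments were not used here.

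Libraries were grouped by the line in their labels. All 24 were fitted together with edgeR 4.0.16 in R 4.3.3 (filterByExpr, TMM scaling, quasi-likelihood test, Benjamini-Hochberg adjustment over 20348 genes, threshold 0.05). Contrasts were LOUCY over DND-41 and each line over the mean of the 4 other lines on the log scale. A change beyond 2-fold was tested with edgeR's glmTreat. The SE of a log2 fold change was its size divided by the square root of F. A gene with no read in a line was set against 3 counts per library, and with 1 to 3 reads in all a ratio has an exact Poisson 95% interval; these cover counting error only. The test was run on simulated counts, with a coefficient of variation between libraries of 0.05. The value estimated from these libraries was 0.1986, so that run does not show error rates at the real spread.

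Members and lists were chosen with earlier results of these data known. Named genes are CD1B, RAG1, MEF2C, HHEX and QKI, up to 4 called members of each list per direction by smallest p, the 12 largest rises and falls, and the 6 highest and lowest genes of each line against all others; further genes were chosen after their values were seen. Some genes that this rule names are not reported here. Alternatives were other size factors, no filter, DESeq2 1.42.0, the 8 libraries alone, a replicate block and leaving out each library.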

Additional observations from a re-analysis of the deposited data

Results flagged for a closer look

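Each value here is the gap between the highest or lowest of 4 libraries of a line and its nearest neighbour, as a share of the line's whole range, and is given where it passed Dixon's 95% critical value for 4 samples. Of 347 tested sets of 4 libraries, 31 passed, and chance alone gives about 1 in 20. The sets include genes chosen after their values were seen, among them stress genes that were high in LOUCY replicate 4. The count therefore cannot be set against that chance rate.

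LOUCY replicate 4 made 18 of the 31. It was high for ATF5 (0.987), BBC3 (0.923), CTSG (0.889), DDIT3 (0.927), FYN (0.848), GFI1 (0.869), HERPUD1 (0.976), HRK (0.929), HSPA5 (0.973), TRIB3 (0.978) and ZBTB7B (0.918). It was low for CCNB1 (0.96), CCNB2 (0.968), CD3G (0.909), CD69 (0.857), CDC20 (0.836), EIPR1 (0.844) and PSMB8 (0.859). DND-41 replicate 4 made 7. It was high for BBC3 (0.842), BCL11A (0.839), BCL11B (0.896), DDIT3 (0.925) and HES4 (0.933) and low for BLK (0.841) and CISH (0.893). The rest were other libraries: LOUCY replicate 1b was low for B2M (0.873), DND-41 replicate 3 was high for CCR8 (0.831), DND-41 replicate 1 was low for HES1 (0.896), LOUCY replicate 1b was high for NOTCH4 (0.926), DND-41 replicate 1 was low for PABPC4L (0.937) and LOUCY replicate 1a was low for PXDN (0.845). In LOUCY replicate 4 histone genes summed to 1252 CPM, against 2001 to 2048 CPM in the other LOUCY libraries. The part of library quality or culture state in these values was not tested.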

How the results depend on the processing

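The count of genes called between LOUCY and DND-41 (13403) lay between 12105 and 14716 under every alternative, and that beyond 2-fold (6377) between 5218 and 7479. Against the 4 other lines, counts lay between 5325 and 7489 in LOUCY and between 3652 and 4667 in DND-41. Without 1 library the 4 counts ranged over 12887 to 13636, 6229 to 6712, 5832 to 6208 and 3806 to 4162. The replicate block gave 12257 and 6094 calls, against 12105 and 6032 with no block over the same 22 libraries, a setting added after seeing the data. Under the block TRIB2 (-0.58, adjusted p = 0.042) and TRIB3 (-1.98, adjusted p = 0.00692) gained a call, and BLNK, CD27, HLA-E and PLK1 lost theirs, as they also did with no block over the same libraries. Since 2 LOUCY columns carry the number 1 and none the number 2, only the numbers 3 and 4 could be matched with DND-41. Their deviations correlated at 0.0215 for number 3 and 0.159 for number 4. The value for number 4 was the highest of all pairs between the lines, the next being 0.0926. DDIT3 and BBC3 were also flagged high in replicate 4 of both lines. Whether equal numbers mean shared handling was not tested, and the reported fit does not pair the libraries. Of 3208 values for 230 named genes over 14 settings, 45 lost their call, 16 gained one and 0 changed direction. DESeq2 and RLE size factors each shifted genes by a median of 0.06 log2 units from the reported fit. The median of all genes was 0.03 under both, against 0.00 in the reported fit. Chromosome arms were not run, because no arm boundaries were used here; whole chromosomes and windows took their place. Genes with under 3 counts per library are below what this depth can show.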
